A study of Mus musculus with 21 samples.

Results

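The 9 genes described here encode dual-specificity phosphatases that act on mitogen-activated protein (MAP) kinases, and they were followed in mouse quadriceps muscle after exhaustive exercise. They were taken by symbol (Dusp1, Dusp4, Dusp5, Dusp6, Dusp7, Dusp8, Dusp10, Dusp16 and Dusp26) from a table of 53738 gene symbols, and all 9 were found. The table held transcript abundances (TPM, scaled by transcript length and by library total) for 21 RNA-seq libraries of bulk quadriceps tissue, 3 from each of 7 groups. All mice were adult C57/Bl6 wildtype males. Sedentary mice performed no exercise, untrained mice ran a treadmill to exhaustion without earlier training, and trained mice ran the same test after 12 weeks of voluntary wheel running. Muscle was taken directly after the bout (0 h), 6 h later or 72 h later. No trained group without a bout was analysed here, so in a comparison of trained with sedentary muscle the training and the bout cannot be told apart.

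MAP kinases (ERK, JNK and p38) are switched on when both a threonine and a tyrosine in their activation loop are phosphorylated, and these phosphatases remove both phosphates. The family is commonly ordered by location and substrate. Dusp1, Dusp4 and Dusp5 are nuclear enzymes encoded by inducible genes, Dusp6 and Dusp7 are cytoplasmic and prefer ERK, Dusp8, Dusp10 and Dusp16 prefer JNK and p38, and Dusp26 is a small atypical member without the kinase-binding domain of the others. Several of the genes are themselves induced by MAP kinase signalling, which makes their products negative feedback regulators, and contraction is a well-known activator of MAP kinases in skeletal muscle.

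The sequences upstream of Dusp1, Dusp8 and Dusp5 are shown because these 3 promoters held a full cAMP response element or a CArG box. Both are motifs of transcription factors that act downstream of cAMP, calcium and MAP kinase signalling. The Dusp16 promoter also held motifs of the search described next but is not shown. Promoter sequences were found in RefSeq (table build GRCm38.p6) for 7 members, and Dusp4 and Dusp26 had no entry. The 250 bases before each RefSeq start were searched on both strands for the cAMP response element TGACGTCA, its shorter core TGACG (part of every full element), the AP-1 site TGANTCA, the EGR site GCGNGGGCG and the CArG box, which binds serum response factor. Capitals mark the matches, and each stretch is printed on the strand of its gene, 5′ to 3′, up to the base before the start of the main annotated transcript. That start lies before the RefSeq start, so 203 (Dusp1), 219 (Dusp8) and 206 (Dusp5) of the 250 bases are printed. Positions of motifs count from the RefSeq start and not from the end of the printed stretch. On GRCm39, where the sequences were located by exact match, they lie at chr17:26727494-26727696 (minus strand, Dusp1), chr7:141649053-141649271 (minus strand, Dusp8) and chr19:53517326-53517531 (plus strand, Dusp5). Dusp1 and Dusp8 also have annotated transcripts that begin further upstream, so these 2 stretches lie inside the annotated span of the gene.
Dusp1: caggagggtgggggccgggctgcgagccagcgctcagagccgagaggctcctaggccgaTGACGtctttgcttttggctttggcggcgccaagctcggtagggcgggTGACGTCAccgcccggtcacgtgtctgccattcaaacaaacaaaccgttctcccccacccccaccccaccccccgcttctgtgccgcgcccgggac
Dusp8: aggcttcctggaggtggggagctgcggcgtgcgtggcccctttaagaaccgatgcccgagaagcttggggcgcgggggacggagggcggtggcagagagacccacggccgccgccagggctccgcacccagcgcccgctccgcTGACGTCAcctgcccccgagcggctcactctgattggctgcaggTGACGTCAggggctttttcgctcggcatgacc
Dusp5: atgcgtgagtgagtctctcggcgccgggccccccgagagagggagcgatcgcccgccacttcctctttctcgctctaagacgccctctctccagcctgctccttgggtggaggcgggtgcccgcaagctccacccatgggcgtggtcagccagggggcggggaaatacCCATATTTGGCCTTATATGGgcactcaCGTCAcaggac

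The Dusp1 promoter held 1 full cAMP response element, 143 bases before the RefSeq start, and a separate TGACG at 191 bases. The Dusp8 promoter held 2 full elements, at 107 and 63 bases. A full element occurred in 1.55% of 32851 promoter windows of the same length. Dusp5 had adjoining CArG boxes at 82 and 72 bases, a motif found in 1.47% of windows, and a core of the cAMP response element on the other strand at 55 bases. The Dusp16 window, not printed, held a TGACG at 70 bases (17.8% of windows) and an EGR site at 138 bases (4.70% of windows). None of these motifs was found in the windows of Dusp6, Dusp7 and Dusp10, and no AP-1 site (6.75% of windows) in any of the 7. A match of letters is a description and does not show that a factor binds there.

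The genes lie on 8 chromosomes in GRCm39, with Dusp4 (chr8:35274442-35287048) and Dusp26 (chr8:31579380-31587075) on the same one. Dusp1 spans chr17:26724564-26781102, Dusp5 chr19:53517532-53530862, Dusp6 chr10:99086564-99103361, Dusp7 chr9:106245143-106252923, Dusp8 chr7:141633226-141649580, Dusp10 chr1:183745499-183807842 and Dusp16 chr6:134692431-134784241. Within the main annotated transcripts, genes on the opposite strand overlap Dusp5, Dusp6, Dusp8, Dusp10 and Dusp16. The library kit does not mark strand, so reads in those overlaps cannot be assigned to 1 strand. Only Gm34921 (overlapping Dusp6), 1700056E22Rik (Dusp10) and Gm36328 (Dusp16) were in the table, and they reached at most 0.447 TPM in any library. The genes overlapping Dusp5 and Dusp8 were not in it, so their level is not known. The same holds for Gm70451, which overlaps Dusp10 on the same strand.

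All libraries carried the profile of skeletal muscle. The summed level of 8 myofibre markers, among them Acta1 and Ckm, was 56927 to 77383 TPM, against 225 to 805 TPM for 5 red blood cell markers, 179.8 to 434 TPM for 6 fibro-adipogenic markers, 73.6 to 106 TPM for 7 endothelial markers, 33.3 to 74.2 TPM for 8 macrophage markers and 0.366 to 1.92 TPM for 5 neutrophil markers. Genes of the mitochondrial genome took 37.7% to 48.0% of the TPM of a library. Sequencing depth cannot be read from TPM, so the precision of low values is known only from the replicates. Replicate 1 of the untrained 0 h group and replicate 1 of the trained 0 h group had the same value for all 53738 symbols, so the table holds 20 distinct libraries, and which 0 h group that library belongs to is not known. Both 0 h groups were used as deposited, and results at 0 h are also given with this shared library left out of both (n = 2 each). The labels do not say whether replicates came from separate animals, so p-values set group differences against the spread between these samples. In the fit as deposited the shared library counts in both 0 h groups as if it were separate libraries.

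In sedentary muscle the levels of the 9 genes, which TPM makes comparable per length, spanned more than 2 orders of magnitude. Dusp26 was highest at 21.5 ± 0.954 TPM (SD, n = 3), followed by Dusp1 at 16.9 ± 4.46 TPM and Dusp10 at 12.0 ± 2.47 TPM, and each of these overlapped its neighbour. Dusp8 (6.41 ± 0.531 TPM) and Dusp7 (4.51 ± 1.02 TPM) came next, without overlap between them. Dusp7 overlapped Dusp6 (3.43 ± 1.14 TPM), which in turn overlapped Dusp16 (2.62 ± 0.108 TPM). Dusp4 (0.335 ± 0.0260 TPM) and Dusp5 (0.110 ± 0.0315 TPM) were the lowest and did not overlap. Over all 21 libraries 7 members had a mean of at least 1 TPM and were among the 11819 genes tested. Dusp4 and Dusp5 were below it, so counts of called members refer to 7 genes. Group means of log2(TPM + 0.5) were compared with limma, and a gene was called when its Benjamini-Hochberg adjusted p was below 0.05 and it changed at least 1.5-fold up or down. This scale understates the change of low genes.

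**Figure D1:**
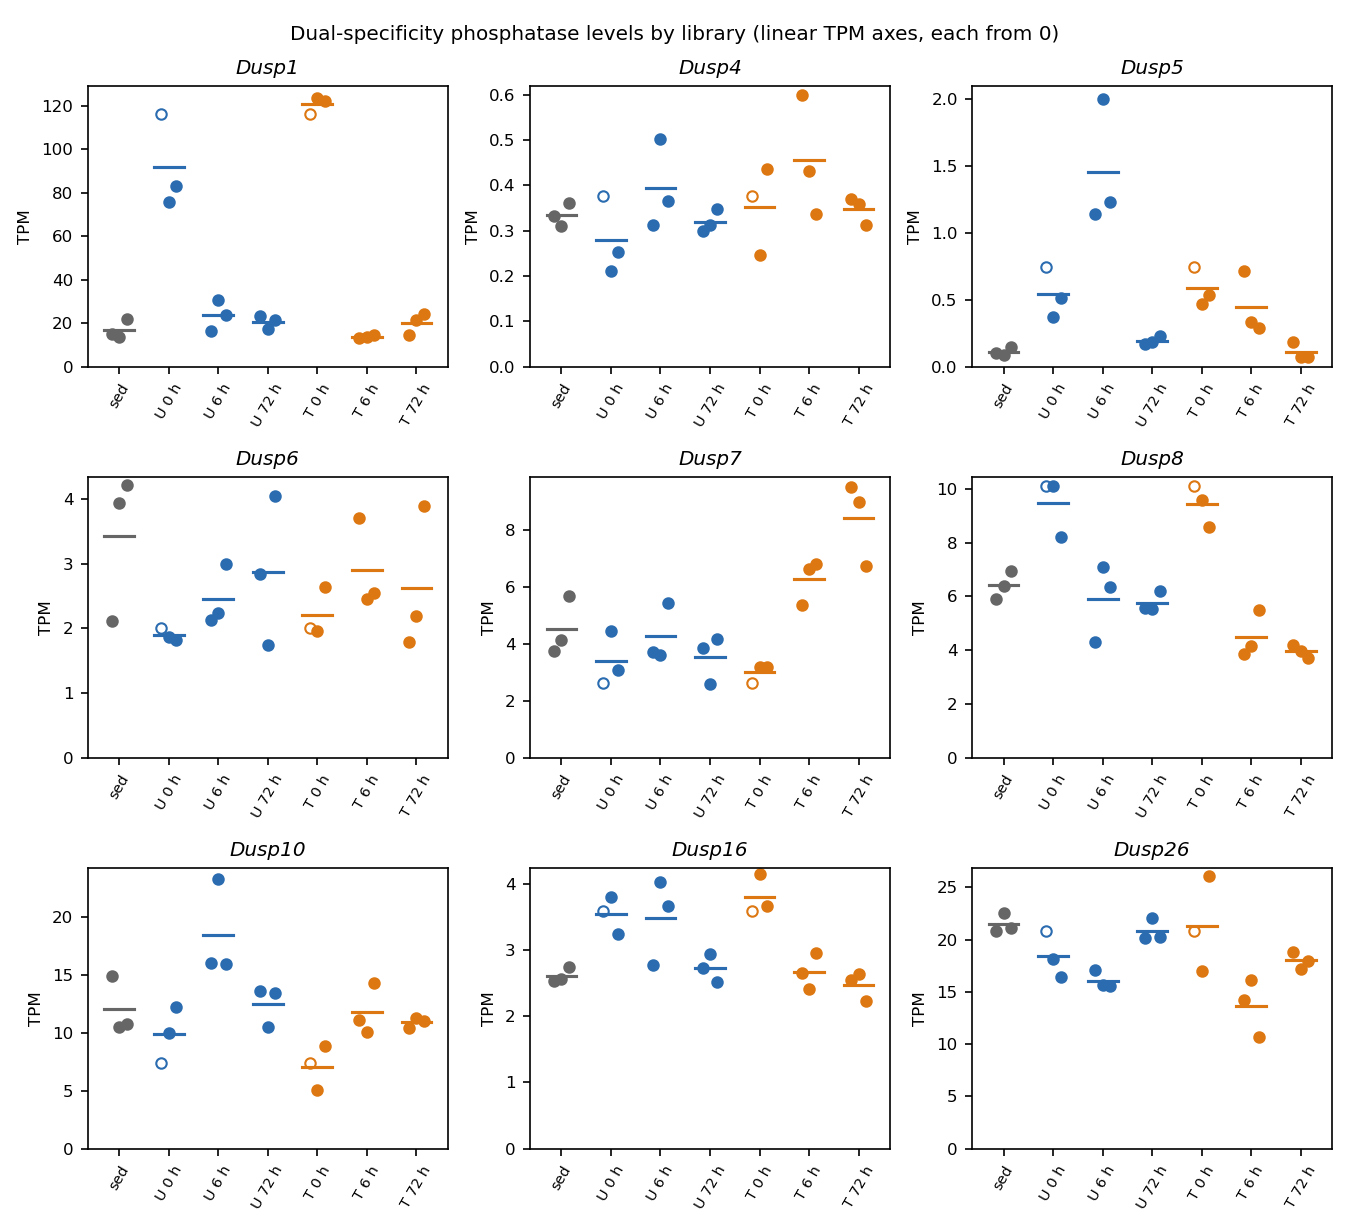
TPM of the 9 phosphatase genes in each library (linear axes from 0), with sedentary muscle in grey, untrained in blue (U) and trained in orange (T), 1 point per library, a line at each group mean, and open circles for the library found in both 0 h groups. Dusp1 lies between 75.7 and 124 TPM in every 0 h library and at or below 30.5 TPM elsewhere, Dusp5 is highest in untrained muscle at 6 h, and Dusp7 is highest in trained muscle at 72 h.

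Dusp1, the nuclear phosphatase of p38, JNK and ERK, gave the largest change of the tested members. Its level in sedentary libraries was 15.1, 13.6 and 21.9 TPM. Directly after the bout untrained libraries held 116, 75.7 and 82.9 TPM and trained libraries 116, 124 and 122 TPM. Every 0 h library lay above every library of the other groups. Mean TPM was 5.43 times the sedentary mean in untrained and 7.16 times in trained muscle at 0 h. On the log2 scale Dusp1 rose by 2.41 (SE 0.23, adjusted p = 5.29e-06, limma with Benjamini-Hochberg adjustment) in untrained and by 2.83 (SE 0.23, adjusted p = 8.55e-07) in trained muscle. Without the shared library the rises were 2.23 (adjusted p = 0.000104) and 2.86 (adjusted p = 1.20e-05).

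At 6 h Dusp1 was 16.2, 30.5 and 23.9 TPM in untrained and 12.9, 13.8 and 14.5 TPM in trained muscle. The log2 change from sedentary was 0.45 in untrained muscle (95% interval -0.04 to 0.95, adjusted p = 0.279, limma). In trained muscle it was -0.26 (95% interval -0.75 to 0.24, adjusted p = 0.550, limma). The untrained libraries overlapped the sedentary ones and lay above the trained ones without overlap. Dusp1 fell from 0 h to 6 h by 1.96 on the log2 scale in untrained muscle (adjusted p = 5.24e-05, limma) and by 3.09 in trained muscle (adjusted p = 4.39e-07). The fall in trained muscle differed from that in untrained muscle by -1.13 (SE 0.33), which did not pass the threshold (adjusted p = 0.170 with 0.651% of tested genes called, and 0.163 with 0.313% called without the shared library). Trained against untrained muscle at 6 h gave a log2 difference of -0.71 (95% interval -1.21 to -0.22, adjusted p = 0.103). With single libraries left out this difference lay between -0.95 and -0.50, with adjusted p from 0.0210 to 0.385 (limma). At 72 h the libraries held 23.4, 17.1 and 21.4 TPM (untrained) and 14.6, 21.5 and 24.3 TPM (trained), overlapping the sedentary range.

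Dusp5, a nuclear phosphatase specific for ERK, was nearly off in sedentary muscle at 0.0987, 0.0848 and 0.145 TPM. It was 0.743, 0.373 and 0.510 TPM in untrained and 0.743, 0.470 and 0.535 TPM in trained muscle at 0 h. At 6 h it reached 1.14, 2.00 and 1.23 TPM in untrained muscle, above every library of the other groups, whereas trained muscle held 0.715, 0.329 and 0.284 TPM. All 0 h and 6 h libraries lay above the sedentary ones. By 72 h it was 0.165, 0.183 and 0.230 TPM (untrained) and 0.185, 0.0688 and 0.0707 TPM (trained).

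Because Dusp5 had a mean below 1 TPM, it was tested only in a fit of all 53738 symbols without a filter, in which 0.839% of symbols were called between untrained muscle at 6 h and sedentary muscle. In that fit Dusp5 rose by 1.66 on the log2 scale in untrained muscle at 6 h (SE 0.18, adjusted p = 0.000136, limma). Its change from 0 h to 6 h in untrained muscle was 0.90 (adjusted p = 0.0148, with 1.07% of symbols called, and 1.03 with adjusted p = 0.0143 without the shared library), and from 6 h to 72 h it fell by 1.47 (adjusted p = 0.000454, with 0.774% called). At 6 h it was lower in trained than in untrained muscle by a log2 difference of -1.05 (SE 0.18, adjusted p = 0.0115, with 0.354% of symbols called). That difference was -0.86 (adjusted p = 0.0544) without untrained 6 h replicate 2, -0.98 (adjusted p = 0.0518) without trained 6 h replicate 2 and -0.94 (adjusted p = 0.0601) without trained 6 h replicate 3. In trained muscle at 0 h the change from sedentary was 0.82 (adjusted p = 0.0314, with 0.86% called) as deposited and 0.72 (adjusted p = 0.115) without the shared library. In untrained muscle at 0 h it was 0.76 (adjusted p = 0.0519, with 0.845% called), and 0.62 (adjusted p = 0.217) without that library.

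The third nuclear member, Dusp4, stayed between 0.210 and 0.600 TPM over all libraries, and it was called in no comparison of the fit without a filter. In the comparisons of that fit not named above, 0.668% of symbols were called in trained muscle at 6 h against sedentary, 0.00186% and 0.00372% in untrained and trained muscle at 72 h, 0% and 0.0149% between training states at 0 h and 72 h, and 1.39% and 0.627% in trained muscle from 0 h to 6 h and from 6 h to 72 h. Its highest group mean was 0.456 ± 0.133 TPM (SD, n = 3) in trained muscle at 6 h, against 0.335 ± 0.0260 TPM in sedentary muscle. These groups overlapped.

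The libraries of untrained muscle at 6 h differed in markers of macrophages and of fibro-adipogenic cells. The summed level of 8 macrophage markers was 35.2, 74.2 and 59.0 TPM in replicates 1, 2 and 3, against 39.5 to 43.4 TPM in sedentary and 33.3 to 48.8 TPM in trained muscle at 6 h. None of the 8 markers was at 0 in any library. The summed level of 6 fibro-adipogenic markers was 179.8, 434 and 317 TPM in the same order, against 269 to 308 TPM in sedentary and 266 to 304 TPM in trained muscle at 6 h. In untrained muscle at 6 h replicate 2 also had the highest Dusp1, Dusp4, Dusp5, Dusp8, Dusp10 and Dusp16 of its group, and replicate 1 had the lowest level of each of these 6 genes except Dusp10. Of the 7 tested macrophage markers 2 rose in untrained muscle at 6 h against sedentary muscle, Cd68 by 1.62 and Csf1r by 0.61 on the log2 scale (adjusted p = 6.41e-05 and 0.0185, limma). The macrophage markers did not move together. In replicate 1 Cd68 (4.36 TPM) and Csf1r (3.38 TPM) lay above all sedentary libraries, whereas Adgre1, Cd163, Mrc1, C1qa, C1qb and Lyz2 lay below all of them. Of the 6 fibro-adipogenic markers 1 was called, Ly6a, which rose by 0.62 (adjusted p = 0.00709, limma), while the median log2 change of this list was -0.14. The part of RNA from either cell type in the phosphatase levels was not tested. In bulk tissue more cells of a type and more RNA per cell cannot be told apart.

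Dusp7, a cytoplasmic phosphatase that prefers ERK, was the tested member that differed between trained and untrained muscle at 72 h. In sedentary muscle it was 3.75, 4.12 and 5.68 TPM. Untrained muscle held 2.61, 4.46 and 3.07 TPM at 0 h, 3.73, 3.62 and 5.44 TPM at 6 h and 3.86, 2.60 and 4.18 TPM at 72 h. Trained muscle started at 2.61, 3.18 and 3.19 TPM at 0 h, then held 5.37, 6.65 and 6.83 TPM at 6 h and 9.52, 8.99 and 6.73 TPM at 72 h. The trained 72 h libraries lay above all sedentary and all untrained libraries. Dusp7 rose in trained muscle from 0 h to 6 h by 0.95 on the log2 scale (SE 0.21, adjusted p = 0.00438, limma), and by 0.87 (adjusted p = 0.0207) without the shared library.

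At 72 h Dusp7 was higher in trained than in untrained muscle by a log2 fold change of 1.15 (SE 0.21, 95% interval 0.71 to 1.59, adjusted p = 0.0230, limma with Benjamini-Hochberg adjustment). It was 1 of 7 genes called higher among all those tested (0.0592%), and 0.245% of tested genes were called in either direction. Against sedentary muscle the trained 72 h level gave 0.84 (SE 0.21, adjusted p = 0.101), with 0.169% of tested genes called. The adjusted p of the trained against untrained difference missed the threshold when 1 of 4 libraries was left out, at 0.0523 and 0.161 without untrained 72 h replicate 1 or 2 and at 0.0826 and 0.141 without trained 72 h replicate 1 or 2, with log2 differences between 0.97 and 1.21. The share of TPM from the mitochondrial genome was 46.7% to 48.0% in trained and 42.3% to 44.3% in untrained muscle at 72 h, and after rescaling without these and the 10 highest genes the Dusp7 difference was 1.32 (adjusted p = 0.0364).

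Dusp6, the other cytoplasmic phosphatase of ERK and a common readout of ERK signalling, was called in no comparison. It was 2.12, 3.94 and 4.22 TPM in sedentary muscle and 2.01, 1.87 and 1.82 TPM in untrained muscle at 0 h, which did not overlap. The log2 change was -0.66 (95% interval -1.25 to -0.08, adjusted p = 0.156, limma). In trained muscle at 0 h, with 2.01, 1.96 and 2.63 TPM, the groups overlapped and the change was -0.50 (adjusted p = 0.252). The later groups ranged from 1.74 to 4.05 TPM.

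Dusp8, a phosphatase of JNK and p38, was highest directly after the bout and lowest in trained muscle at 6 h and 72 h. Sedentary libraries held 5.89, 6.40 and 6.95 TPM. At 0 h it was 10.1, 10.1 and 8.23 TPM in untrained and 10.1, 9.58 and 8.59 TPM in trained muscle, all above the sedentary libraries. The log2 changes of 0.53 and 0.52 had adjusted p = 0.0399 and 0.0360 (limma) but were below the fold threshold, and without the shared library they were 0.48 and 0.47 (adjusted p = 0.158 and 0.131). The mitochondrial share of TPM was 37.7% to 40.6% in the 0 h libraries and 42.2% to 46.9% in the sedentary ones, and the median of all tested genes shifted by 0.10 and 0.13. Under median-of-ratios scaling, which brought that median to 0.01 in both, the Dusp8 changes were 0.43 and 0.40 (adjusted p = 0.0509 and 0.0828). At 6 h it was 4.28, 7.10 and 6.36 TPM in untrained muscle, which overlapped the sedentary range, and 3.84, 4.16 and 5.48 TPM in trained muscle, which did not. The log2 change of trained 6 h muscle from sedentary was -0.48 (adjusted p = 0.0492, limma), below the fold threshold. Its adjusted p reached 0.188 with single libraries left out.

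From 0 h to 6 h Dusp8 fell by 0.66 on the log2 scale in untrained muscle (SE 0.15, adjusted p = 0.00844, limma) and by 1.00 in trained muscle (SE 0.15, adjusted p = 0.000239). Both falls were called without the shared library, at -0.61 (adjusted p = 0.0458) and -0.95 (adjusted p = 0.00263). The fall in untrained muscle was -0.46, below the fold threshold, without untrained 6 h replicate 1. At 72 h trained muscle held 4.17, 3.98 and 3.69 TPM, below all sedentary libraries and below the 5.56, 5.52 and 6.19 TPM of untrained muscle. The change of trained 72 h muscle from sedentary was -0.64 (95% interval -0.95 to -0.32, adjusted p = 0.0797), and its difference from untrained muscle was -0.49 (adjusted p = 0.140).

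Dusp10, which also acts on JNK and p38, had its lowest mean in trained muscle at 0 h and its highest in untrained muscle at 6 h. It was 14.9, 10.5 and 10.8 TPM in sedentary muscle, 7.40, 10.02 and 12.3 TPM in untrained muscle at 0 h and 7.40, 5.03 and 8.82 TPM in trained muscle at 0 h. The trained 0 h libraries lay below the sedentary ones. The log2 change in trained muscle was -0.74 (SE 0.22, adjusted p = 0.0419, limma) as deposited and -0.79 (adjusted p = 0.0658) without the shared library, and the adjusted p also missed the threshold, at 0.0732 to 0.169, when sedentary replicate 1 or 2 or trained 0 h replicate 1 or 2 was left out alone.

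At 6 h Dusp10 was 16.0, 23.3 and 16.0 TPM in untrained muscle, above all sedentary libraries, and 11.1, 10.1 and 14.3 TPM in trained muscle, within or close to the sedentary range. The change of untrained muscle from sedentary was 0.59 (adjusted p = 0.109, limma). Between 0 h and 6 h the change was 0.87 in untrained muscle (adjusted p = 0.0162 as deposited, and 0.0949 without the shared library) and 0.72 in trained muscle (adjusted p = 0.0248, and 0.0392 without it). The call in untrained muscle was lost without untrained 6 h replicate 2 (adjusted p = 0.0636). That in trained muscle was lost without trained 0 h replicate 1 or 2 (adjusted p = 0.0503 and 0.109) and without trained 6 h replicate 1 or 3 (adjusted p = 0.0510 and 0.0964). By 72 h both groups held 10.4 to 13.6 TPM.

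Dusp16, the third phosphatase of the JNK and p38 group, moved within a narrow range of 2.23 to 4.15 TPM. Sedentary libraries held 2.54, 2.57 and 2.74 TPM, untrained 0 h libraries 3.59, 3.81 and 3.25 TPM, and trained 0 h libraries 3.59, 4.15 and 3.67 TPM. All 0 h libraries lay above the sedentary ones, with log2 changes of 0.38 and 0.46 (adjusted p = 0.0391 and 0.0113, limma) that were below the fold threshold. Without the shared library these were 0.37 and 0.50 (adjusted p = 0.130 and 0.0298), under median-of-ratios scaling 0.29 and 0.35 (adjusted p = 0.0474 and 0.0174), and after rescaling without the mitochondrial genome and the 10 highest genes 0.25 and 0.32 (adjusted p = 0.240 and 0.123). At 6 h untrained libraries remained at 2.79, 4.03 and 3.68 TPM, above the sedentary range (log2 change 0.35, adjusted p = 0.0488), and trained libraries were at 2.66, 2.42 and 2.96 TPM. Trained against untrained muscle at 6 h gave -0.32 (95% interval -0.54 to -0.10, adjusted p = 0.101).

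Dusp26, the atypical member and the highest of the 9 in sedentary muscle, was lower 6 h after the bout. It was 20.8, 22.6 and 21.1 TPM in sedentary muscle, 17.1, 15.6 and 15.5 TPM in untrained and 14.2, 16.1 and 10.7 TPM in trained muscle at 6 h. Neither 6 h group overlapped the sedentary one. In trained muscle Dusp26 fell by 0.65 on the log2 scale (SE 0.14, adjusted p = 0.00755, limma), and in untrained muscle the change was -0.41 (95% interval -0.71 to -0.11, adjusted p = 0.0853). The difference between them was -0.24 (95% interval -0.54 to 0.06, adjusted p = 0.385). Without trained 6 h replicate 3, the lowest library, the change in trained muscle was -0.49 (adjusted p = 0.0378), below the fold threshold.

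From 0 h (20.8, 17.0 and 26.1 TPM) to 6 h Dusp26 fell by 0.62 in trained muscle (adjusted p = 0.00564, limma, and 0.0184 without the shared library). That change was -0.46 under median-of-ratios scaling and -0.42 after rescaling without the mitochondrial genome and the 10 highest genes, both below the fold threshold, and the median of all tested genes shifted by -0.15 over the same interval on TPM as deposited. It was -0.47 without trained 0 h replicate 3 and -0.46 without trained 6 h replicate 3. At 72 h it was 20.1, 22.0 and 20.3 TPM in untrained and 18.8, 17.2 and 18.0 TPM in trained muscle, where the log2 change from sedentary was -0.25 (adjusted p = 0.521).

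**Figure D2:**
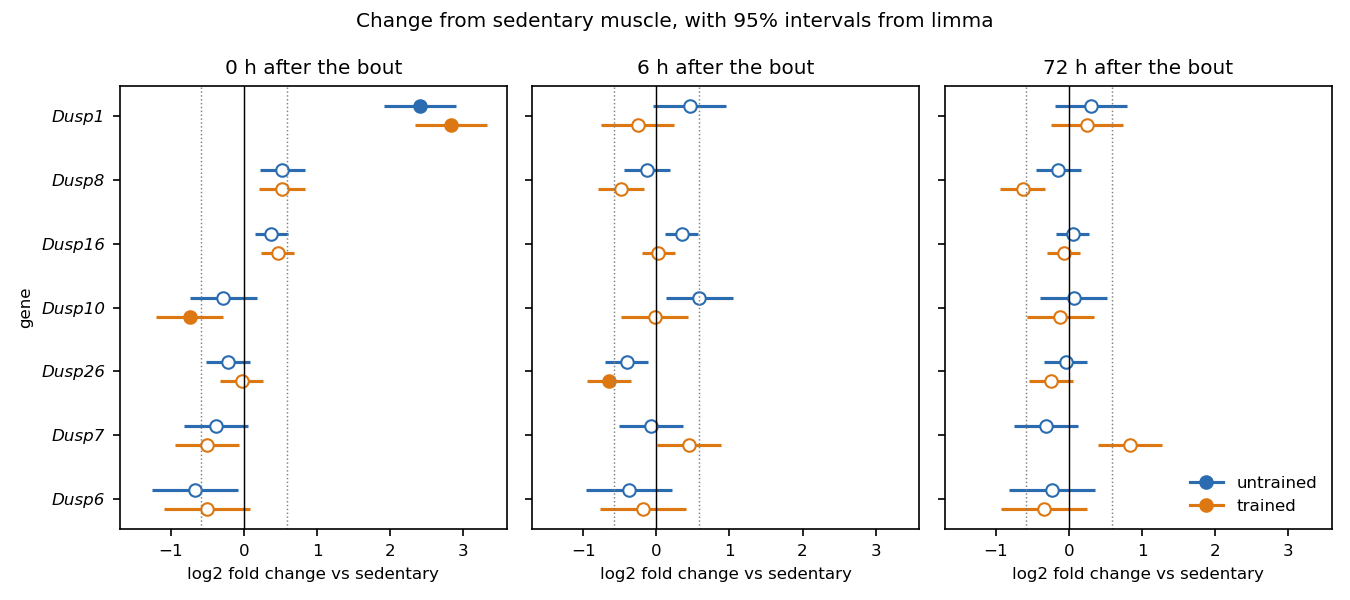
Log2 fold change of the 7 tested members from sedentary muscle, with 1 panel per time after the bout, for untrained (blue) and trained (orange) muscle, with bars for the 95% interval from limma, filled points for called genes and dotted lines at a 1.5-fold change up and down. Dusp1 at 0 h lies at 2.41 and 2.83, far right of the other members, and the other filled points are Dusp10 at 0 h and Dusp26 at 6 h in trained muscle.

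Counted together, 1 of the 7 tested members was called in untrained muscle at 0 h (Dusp1), where 3.59% of all tested genes were called, and 2 in trained muscle at 0 h (Dusp1 higher, Dusp10 lower), where 3.74% were. Without the shared library 1 member was called in each, against 2.95% and 3.27% of tested genes. At 6 h 0 members were called in untrained muscle (4.42% of tested genes) and 1 in trained muscle, Dusp26 (3.85%). At 72 h 0 members were called in either (0.00846% and 0.169%), while 0 and 2 had an unadjusted p below 0.05, against 5.77% and 11.7% of tested genes. The untrained 6 h count of 0 had 3 of 7 members at an unadjusted p below 0.05, against 21.8% of tested genes.

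The interval from 0 h to 6 h held the most calls, 3 members in untrained muscle (4.64% of tested genes called) and 5 in trained muscle (6.46%). In both states Dusp1 and Dusp8 were lower and Dusp10 was higher at 6 h, and in trained muscle Dusp26 was also lower and Dusp7 higher. Without the shared library the counts were 2 (4.18%) and 5 (5.82%). From 6 h to 72 h 0 members were called in untrained (4.04%) or trained muscle (3.48%), with 3 and 2 of 7 at an unadjusted p below 0.05, against 21.8% and 22.0% of tested genes. The 0 h group enters 1 side of both the comparison with sedentary muscle and that with 6 h, so these counts are not independent of each other.

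**Figure D3:**
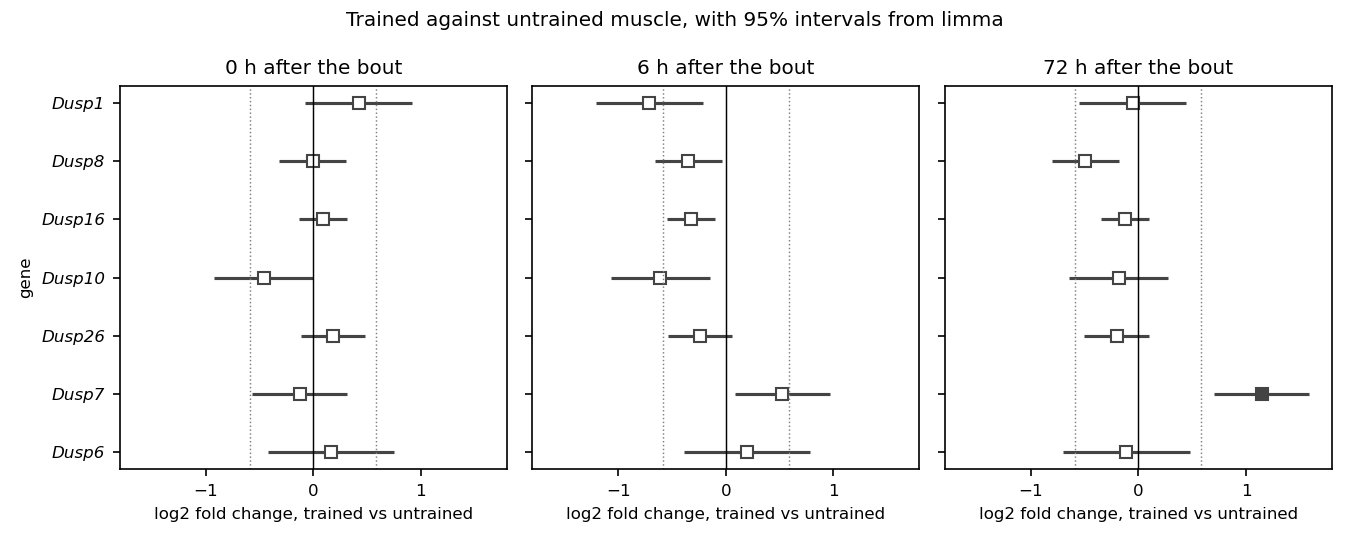
Log2 fold change of trained against untrained muscle for the 7 tested members, with 1 panel per time after the bout, bars for the 95% interval from limma, filled squares for called genes and dotted lines at a 1.5-fold change up and down. The only filled square is Dusp7 at 72 h, at 1.15.

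Compared directly, trained and untrained muscle differed in 0 members at 0 h, where 0% of tested genes were called and 1 member had an unadjusted p below 0.05 (1.21% of tested genes). Both 0 h groups contain the shared library, which draws their means together. Dusp1 at 0 h had a log2 difference of 0.42 (95% interval -0.07 to 0.92, adjusted p = 1, limma), and of 0.63 (SE 0.28, adjusted p = 1) without the shared library, where 0 members were called as well. At 6 h 0 members were called (2.01% of tested genes), with 5 of 7 at an unadjusted p below 0.05, a level that 18.3% of tested genes reached. These 5 were Dusp1, Dusp8, Dusp10 and Dusp16, lower in trained muscle at -0.71, -0.35, -0.61 and -0.32, and Dusp7 at 0.52, with adjusted p between 0.101 and 0.219.

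The rest of the MAP kinase pathway gives the setting of these values. The lists held 86 genes, of which 64 were tested. In untrained and in trained muscle at 0 h 10 of the 64 rose and 0 fell, the same 10 genes, where 2.97% and 3.39% of all tested genes were called higher. Of these, 8 were early genes driven by MAP kinases, Fos (log2 changes 5.75 untrained and 6.09 trained), Egr1 (4.93 and 5.23), Fosb, Jun, Junb, Ier2, Ier3 and Atf3. The other two were Map3k6, a kinase of the JNK and p38 cascade (1.63 and 1.66), and Spry4, a feedback inhibitor of receptor signalling to ERK (1.27 and 1.28). The early genes had a median log2 change of 3.24 and 3.56, against 0.10 and 0.13 over all tested genes and -0.22 and -0.03 over the 7 members. The 10 genes were also called without the shared library. Outside 0 h Fosb and Spry4 reached at most 0.533 and 0.834 TPM in any library. They passed the filter of 1 TPM only through the 0 h libraries in which they were called, so the count of 10 is not independent of the filter.

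At 6 h 9 pathway genes rose in untrained muscle and 5 in trained muscle, and 0 fell, where 3.53% and 2.41% of all tested genes were called higher. Early genes made up 5 of the 9 (Atf3 at 6.28, Fos at 2.94, Egr1 at 2.34, Jun at 1.00 and Fosb at 0.62) and 1 of the 5 (Atf3 at 2.90). Outside the early genes Map3k6 (1.37 and 1.27) and Mknk2, a kinase activated by ERK and p38 (1.18 and 0.64), rose in both. So did Dusp27 (1.14 and 0.89), from the list of atypical dual-specificity phosphatases. Trained muscle at 6 h was lower than untrained in 6 pathway genes (Fos, Fosb, Jun, Egr1, Atf3 and Map3k14). It was higher in Dusp18, an atypical dual-specificity phosphatase. Of all tested genes 1.46% and 0.558% were called lower and higher. Dusp18 differed by 1.64 (SE 0.16, adjusted p = 3.92e-05, limma), with means of 6.38 ± 0.439 TPM in trained and 1.71 ± 0.107 TPM in untrained muscle (SD, n = 3). The 8 MAP kinases and 7 MAP kinase kinases tested gave 0 calls in every comparison, with 0 to 3 genes of either list at an unadjusted p below 0.05 in a comparison, against 1.21% to 38.6% of all tested genes.

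**Figure D4:**
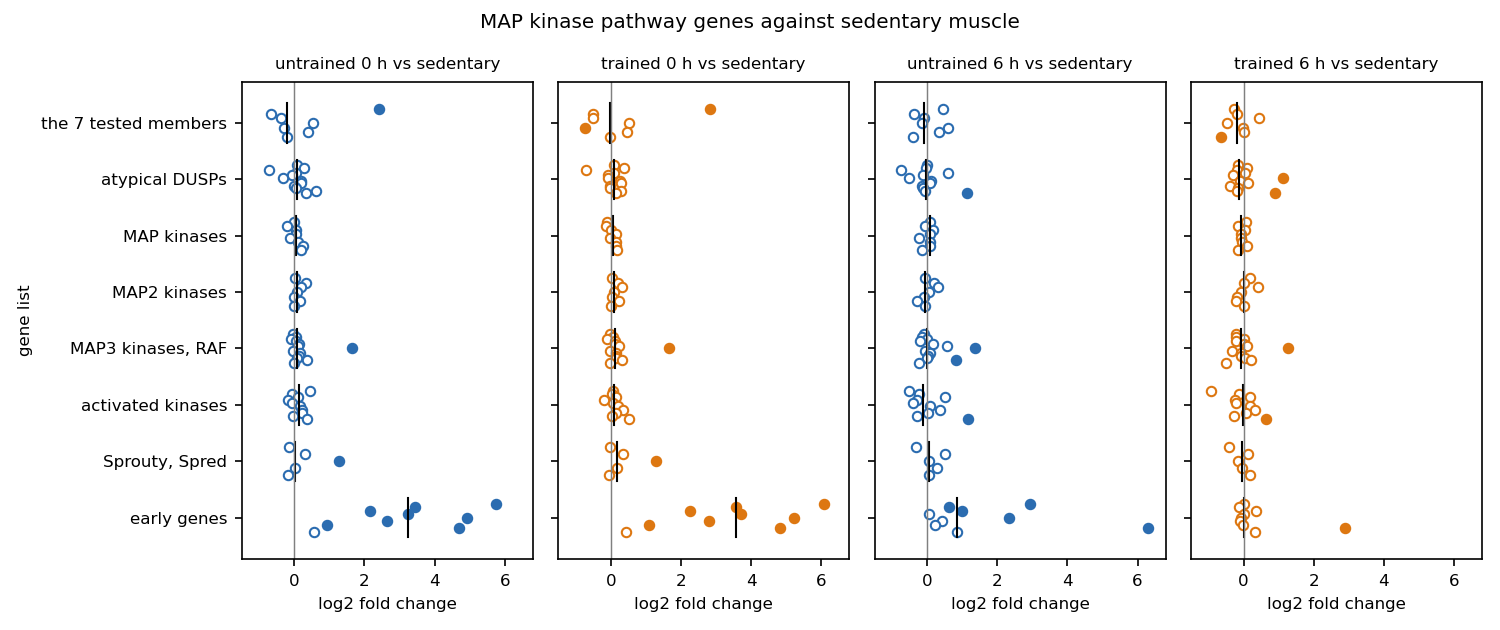
Log2 fold change from sedentary muscle for the 7 tested members and the genes of 7 MAP kinase pathway lists at 0 h and 6 h, with 1 point per gene, filled points for called genes and black bars for list medians. The early genes at 0 h stand far to the right, with medians of 3.24 and 3.56, while MAP kinases and MAP kinase kinases have no filled point.

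The genes with profiles most like each member over the 20 distinct libraries are given as a description, since the points share groups and libraries. Dusp1 was closest to Errfi1 (Pearson r = 0.984), a feedback inhibitor of EGF receptor signalling, to Gem (0.979), a small GTP-binding protein, and to the early gene Ier2 (0.975). Dusp8 was closest to Dcun1d2 (0.953), and Dusp16 to Cldnd1 (0.916), Raly (0.914) and Rbm14 (0.912). The nearest profiles were less close for Dusp26 (Pot1a, 0.839), Dusp7 (Inppl1, 0.790), Dusp10 (Sh3bp2, 0.757) and Dusp6 (Zfp386, 0.724). Among the members, Dusp1 and Dusp8 had r = 0.816, Dusp8 and Dusp16 0.794, and Dusp7 and Dusp8 -0.66.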

How the data were processed

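Quadriceps transcripts were profiled in 21 libraries. Per the labels, reads were processed with STAR 2.7.9 and Salmon 1.5.0 on GRCm39, and the authors deposited TPM per gene symbol. TPM is scaled by length and library total, so depth is not kept and a rise of abundant transcripts lowers all others. The annotation release is not given in the sources used here. All columns carried a sample (0 unassigned). After a log2 transformation with a pseudocount of 0.5 TPM, genes whose mean reached 1 TPM were kept, and limma 3.58.1 (R 4.3.3) estimated 7 group means in 1 model (14 residual degrees of freedom, variance trend on expression). P-values were adjusted over all tested genes in each comparison (Benjamini-Hochberg), and calls needed both an adjusted p under 0.05 and a 1.5-fold change. The fit was tested on simulated data. Named genes were all members, called genes of each pathway list (at most the 2 largest rises and 2 largest falls per list and comparison) and up to 3 nearest profiles per member (1 is not reported here). The early genes beyond these 2 were named after their values were seen, as were the difference of the change from 0 h to 6 h between training states, and the refits of Dusp5 and Dusp2 without single libraries. The members and lists were chosen with earlier results of these data known. Same-numbered libraries of groups compared had residual correlations of -0.115 to 0.103 in 12 of 13 comparisons and were treated as unpaired. Only the 0 h groups, which share a library, had higher values. Promoters came from RefSeq sequences, with positions from GRCm39. Python 3.11.15, pandas 2.3.3 and matplotlib 3.10.9 were used. Alternatives were other pseudocounts, filters, scalings, variance models, samples, a replicate block and leaving out each library.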

Additional observations from a re-analysis of the deposited data

Results flagged for a closer look

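Dusp7 at 72 h is listed because the direct test between training states passed, with a log2 fold change of 1.15 for trained against untrained muscle. Trained libraries were higher in 3 of 3, without overlap.

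Dusp5 at 6 h is listed for the same reason in the fit without a filter, with a log2 fold change of -1.05 for trained against untrained muscle. Trained libraries were lower in 3 of 3, without overlap. Both differences are direct tests of 3 against 3 libraries, and both lost the threshold when certain single libraries were left out.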

How the results depend on the processing

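Dusp1 at 0 h against sedentary muscle, and its fall from 0 h to 6 h, stayed called under all alternatives run, with adjusted p up to 0.0364. Of 394 refits of 22 results on single members, none changed direction. These results were kept because they were called in the main fit or in an alternative, so a kept direction is weak evidence. The call was lost in 18 refits without a single library and in 19 other refits. It was gained in 3 and 8. Counts of called members were 1 in untrained 0 h muscle against sedentary, 2 after rescaling without the mitochondrial genome and top 10 genes, 3 with no fold threshold, and 1 to 2 with single libraries left out. In trained 0 h muscle the count of 2 became 1 with only the groups compared or without the shared library in trained muscle, 4 with no fold threshold, and 1 to 2 with single libraries left out. For untrained 6 h muscle the count of 0 became 1 with no filter, with rescaling and with no fold threshold. For trained 6 h muscle 1 became 2 with rescaling and with no fold threshold, and 0 with only the groups compared. For trained 72 h muscle 0 became 1 under median-of-ratios scaling (Dusp8 -0.61, adjusted p = 0.0439, limma). Trained against untrained muscle went from 0 to 1 at 6 h with no filter and with rescaling (0 to 1 with single libraries left out), and from 1 to 0 at 72 h with no filter, a mean of at least 5 TPM (which removes Dusp7) and only the groups compared (0 to 1). From 0 h to 6 h only the groups compared gave 1 in place of 3 in untrained and 3 in place of 5 in trained muscle (3 to 5 with single libraries left out). From 6 h to 72 h rescaling gave 1 in place of 0 in both, and no filter 1 in untrained muscle. With no filter all 9 members were tested in place of 7, and Dusp5 was the member gained. This holds for untrained muscle at 6 h, for training states at 6 h and for untrained muscle from 6 h to 72 h. The cause of the other changes in count was not tested. The share of all tested genes called also changes with the setting, for example from 3.59% to 0.845% in untrained 0 h muscle with no filter. These counts are therefore no result about the members.

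Counts of called pathway genes at 0 h fell from 10 to 5 in both states with a mean of at least 5 TPM. At 6 h against sedentary muscle 9 became 4 with only the groups compared and 14 with no fold threshold in untrained, and 5 became 3 with a mean of at least 5 TPM and 10 with no fold threshold in trained muscle. Trained against untrained at 6 h, 7 became 3 with no filter, 4 with a mean of at least 5 TPM, 1 with only the groups compared, and 3 to 9 with single libraries left out. From 0 h to 6 h a mean of at least 5 TPM gave 6 in both, and no fold threshold 22 in trained muscle. From 6 h to 72 h only the groups compared gave 4 in untrained and 3 in trained muscle, where a mean of at least 5 TPM gave 3 and no fold threshold 12. Stricter filters test fewer genes. The share of all tested genes called shifts with the setting here too, so these counts are no result about the pathway. The replicate block left the member counts as they were, for example 5 from 0 h to 6 h in trained muscle and 1 at 72 h between training states. Depth is unknown, and 3 libraries per group (2 without the shared one) limit precision.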

Other observations

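Dusp2, a nuclear phosphatase of the same family that is no member of the list above, had a mean below 1 TPM and was examined after its values were seen. In the fit of all symbols without a filter it rose by 0.97 on the log2 scale in trained muscle at 0 h (SE 0.17, adjusted p = 0.00570, limma) and by 0.87 (adjusted p = 0.0217) without the shared library. In untrained muscle the change was 0.89 (adjusted p = 0.0115) as deposited and 0.74 (adjusted p = 0.0562) without that library. Mean levels were 0.335 ± 0.116 TPM in sedentary, 1.06 ± 0.311 TPM in untrained 0 h and 1.15 ± 0.322 TPM in trained 0 h muscle (SD, n = 3). From 0 h to 6 h Dusp2 fell by 1.32 in trained muscle (adjusted p = 0.000346), to 0.150 ± 0.0102 TPM, and in untrained muscle the change was -0.68 (adjusted p = 0.0484 as deposited, 0.189 without the shared library).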
